A study of Mus musculus with 4 samples.

Results

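The genes described here lie in the proximal part of the mouse X chromosome and start between 10 and 30 Mb in build mm9. The stretch holds 86 of the 952 X-linked genes in the deposited table. Ddx3x and Kdm6a, which are known to escape X inactivation, and the testis gene Slx were left out, so 83 genes remain. Of these, 28 had enough allele-specific reads to be followed on each X chromosome and are called informative. That required a share in all 4 libraries and 20 or more allele-specific reads per library on average. The RNA came from female embryonic fibroblasts of stage E13.5, with 2 libraries per genotype. The MD1 libraries were Smchd1 MD1/MD1 and Xist deltaA/+, and the WT libraries were Smchd1 +/+ and Xist deltaA/+. Every culture therefore carried 1 Xist-deltaA allele, which came from a C57BL6/J (B6) mother. The fathers were F1 males of JF1 and C57BL6/J. The Xist-deltaA X stays active in such females, so the paternal X is the silenced one in all cells, and this holds for the WT cultures too. Nothing in the labels says whether the replicates came from separate fetuses, so each p-value measures how these samples vary, which may be technical.

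X inactivation silences one X chromosome of each female cell. It starts when Xist RNA coats that chromosome and is then kept through cell divisions by histone marks and DNA methylation of promoters. SmcHD1, a noncanonical relative of the SMC proteins that fold chromosomes, binds the inactive X and is needed for stable silencing of many of its genes. MD1 is a loss-of-function allele of Smchd1 from a mutagenesis screen. Reads that carry a JF1 variant come from the silenced paternal chromosome, and the percentage of allele-specific reads with a JF1 variant is called the paternal share. It is 0% for a fully silent paternal allele and 50% where both alleles give equal numbers of reads.

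Smchd1 had a mean of 1.94 FPKM in MD1 and 14.7 in WT. Xist reads were paternal at 99.9% ± 0.0181 in MD1 and 99.9% ± 0.0123 in WT (SD, n = 2 each). Allele-specific reads on X totalled 704635 and 806626 in MD1 and 544330 and 521768 in WT, and the 28 informative genes held 8.54% and 9.07% of them in MD1 and 6.11% and 6.71% in WT. All 8 fibroblast markers were present, at 9.25 to 2802 FPKM in MD1 and 4.79 to 2790 in WT. They differed between the groups in both directions. Fn1 (940.4 FPKM in MD1 and 370.2 in WT) and Pdgfra (9.25 and 4.79) were higher in MD1, while Col1a1 (1081 and 1688) and Col1a2 (477.3 and 848.7) were lower. Markers of other cell types differed between the groups too. Their summed FPKM was 36.3 in MD1 and 124.5 in WT for 5 skeletal muscle genes, 60.3 and 35.1 for 5 neural genes, 106.4 and 123.9 for 7 macrophage genes, 4.93 and 7.80 for 5 endothelial genes and 24.8 and 19.97 for 5 epithelial genes. Within a list the genes did not all go one way. Tubb3 (31.6 FPKM in MD1 and 16.4 in WT) and Stmn2 (24.8 and 9.62) were higher in MD1, while Map2 (2.05 and 6.44), Sox10 and Elavl4 were lower. Lyz2 made up most of the macrophage sum, with 86.8 in MD1 and 99.4 in WT, and Cd68 and Emr1 were slightly higher in MD1. Krt18 was the only epithelial gene higher in MD1, and all 5 skeletal muscle genes were lower. Of these markers only Krt5, in MD1, was listed at 0, and the part of such cells in the results below was not tested.

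Nearly all informative genes of the stretch were transcribed from the paternal X in MD1 and close to silent there in WT. In edgeR, with p-values adjusted over all 391 informative X genes, the paternal share rose at 25 of the 28 genes. Over all 391 genes 74.4% rose. The 3 genes that did not pass were Maob, Gm5124 and Klhl13. No gene of the stretch fell in edgeR, either after adjustment or at an unadjusted p under 0.05, and 0 fell in DESeq2, while 0.256% of all informative X genes fell in edgeR. The largest adjusted p among the 25 genes was 0.00101, at Cfp. At these 25 genes the lower MD1 value exceeded the higher WT value, which was so for 77.5% of all informative X genes.

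The mean paternal share of the 28 genes was 25.04% and 24.4% in the MD1 libraries, against 0.165% and 0.152% in the WT libraries. The group means were 24.7% ± 0.465 in MD1 and 0.158% ± 0.00916 in WT (SD, n = 2 each). Both groups were tight and far apart. With reads pooled over genes, so that abundant genes such as Uba1 and Timp1 weigh more, the shares were 37.7% ± 1.94 in MD1 and 0.126% ± 0.00463 in WT (SD, n = 2 each). In WT the highest share of any gene in any library was 1.08%, at 1810030O07Rik, and 11 of the 28 genes had no paternal read at all, beside 44.2% of all informative X genes. A share from a whole culture cannot tell a few cells with a fully active paternal allele from many cells with a weakly active one.

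**Figure D1:**
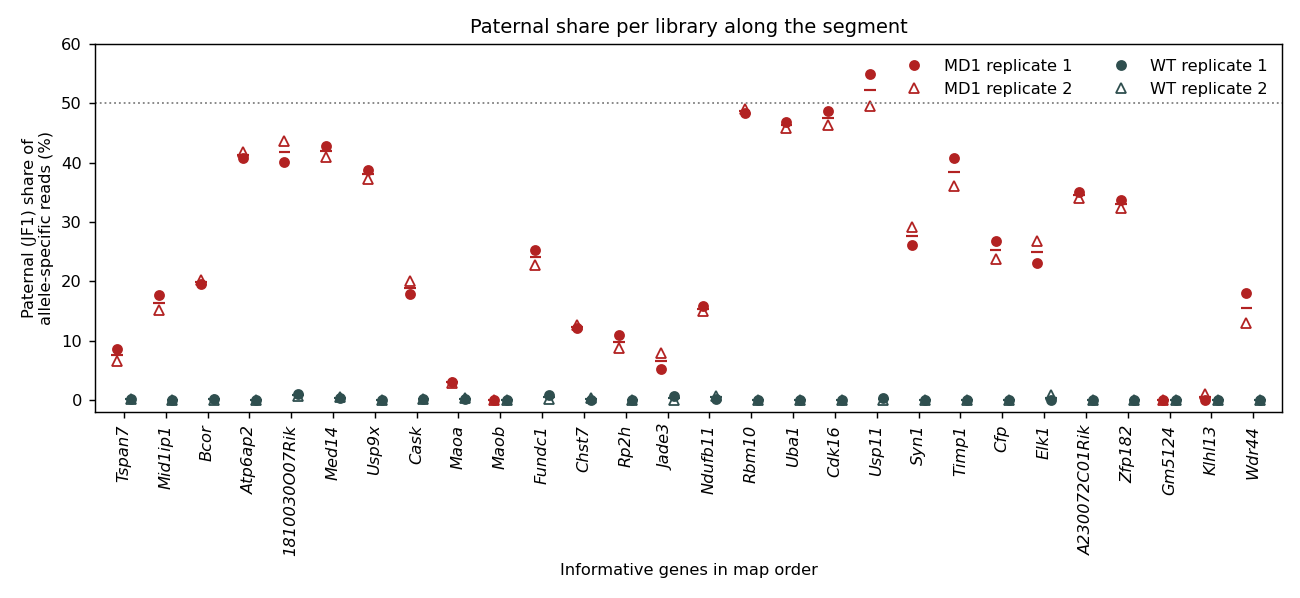
Paternal (JF1) share of allele-specific reads, in percent, for the 28 informative genes in map order; filled circles are replicate 1, open triangles replicate 2, short bars the group mean, and the dotted line marks 50%. MD1 libraries (red) reach 46.3% to 52.3% on average at Rbm10, Uba1, Cdk16 and Usp11 and stay at 0% at Maob and Gm5124, while WT libraries (dark) lie at or under 1.08% throughout.

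The plot of shares in map order shows that high and low genes lay in groups along the chromosome, and the genes are described in that order. The groups were drawn after the values were seen and have no test of their own. At the proximal edge, Tspan7 (X, 10062242 to 10173730, mm9, as all gene positions here), a membrane protein of the tetraspanin family, had a share of 7.62% ± 1.35 in MD1 and 0.172% ± 0.0195 in WT (SD, n = 2 each). Mid1ip1, a regulator of fatty acid synthesis, had 17.7% and 15.2% in the MD1 libraries, against 0% and 0.0730% in WT. The next gene, Bcor, encodes a corepressor found in a variant Polycomb complex. Its shares were 19.6% and 20.2% in MD1 and 0.227% and 0.0758% in WT. All 3 rose in edgeR, and the next informative gene outside the 10 Mb bound, Rpgr, had 34.1% ± 0.0965 in MD1 and 0% ± 0 in WT (SD, n = 2 each).

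A step up followed. The 4 genes from Atp6ap2 to Usp9x (X, 12164885 to 12750453) had mean shares of 38.03% to 41.9% in MD1 and at most 0.887% in WT. Atp6ap2, an accessory subunit of the vacuolar proton pump that also binds prorenin, had 40.8% and 41.9% in the MD1 libraries, against 0.103% and 0% in the WT libraries. Med14, a core subunit of the Mediator complex that links transcription factors to RNA polymerase, had 42.8% of 2462 reads and 41.02% of 3474 reads in MD1, against 0.375% of 1333 and 0.485% of 1237 in WT. The rise at Med14 was 41.5 ± 0.877 points (SE), with an adjusted p of 2.39e-99 in edgeR. Next to it on the same strand, 1810030O07Rik, which is known to escape inactivation in some cell types, had 40.1% and 43.6% in MD1 and 1.08% and 0.690% in WT. Usp9x, a deubiquitinating enzyme, had 38.8% and 37.2% in MD1, against 0.0707% and 0.0467% in WT. In these genes every MD1 library was more than 37% paternal and the 2 replicates differed by less than 4 points.

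Between Usp9x and Cask lies Ddx3x, which the selection leaves out as an escape gene. It had 43.3% ± 1.35 in MD1 and 24.7% ± 0.444 in WT (SD, n = 2 each), so its MD1 share was close to that of Usp9x while its WT share was far higher. Cask (X, 13094208 to 13423682), a scaffold kinase of cell junctions and synapses, had a lower share, 17.8% and 20.03% in MD1 and 0.266% and 0.189% in WT.

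The monoamine oxidase pair stayed close to silent. Maoa (X, 16196824 to 16264938) and Maob (X, 16286407 to 16394492) encode mitochondrial enzymes that break down amine neurotransmitters, and they point at each other on opposite strands. Maoa was deeply covered and had 3.10% of 1549 reads and 2.93% of 1910 reads in MD1, against 0.142% of 1413 and 0.359% of 2504 in WT. This was a rise of 2.76 ± 0.137 points (SE; adjusted p = 1.91e-14, edgeR), the smallest among the 25 genes that rose. Maob had no paternal read among 104 and 72 reads in MD1 or among 113 and 112 reads in WT. The pooled counts of 176 and 225 reads allow a share of up to 1.70% in MD1 and 1.33% in WT. Further on, Fundc1 (X, 17133695 to 17149423), a mitophagy receptor of the outer mitochondrial membrane, had 25.3% and 22.8% in MD1, against 0.831% and 0.253% in WT. Kdm6a, a histone demethylase gene left out as an escape gene, follows it with 40.9% ± 1.47 in MD1 and 31.4% ± 1.79 in WT (SD, n = 2 each).

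Low shares were also found from Chst7 to Jade3 (X, 19636696 to 20097065). Chst7, a sulfotransferase of glycosaminoglycans, had 12.1% and 12.6% in MD1, against 0% and 0.358% in WT. Rp2h, which releases lipid-modified cargo on the way to cilia and is the mouse gene for retinitis pigmentosa 2 protein, had 10.9% and 8.80% in MD1 and no paternal read among 757 in WT, which allows up to 0.396%. Jade3, a subunit of a histone acetyltransferase complex, had 5.31% and 7.87% in MD1, against 0.643% and 0% in WT. Its rise was 6.27 ± 1.32 points (SE; adjusted p = 3.73e-09, edgeR). Each of these genes rose, and none exceeded 13% in a library.

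Some of the highest shares of the stretch begin right beside these low ones. Ndufb11 (X, 20192452 to 20194690) encodes a subunit of respiratory complex I. It had 15.8% of 76 reads and 15% of 80 reads in MD1, against 0.284% of 703 and 0.631% of 792 in WT. Its reads were far fewer in MD1 although its FPKM was higher there, so its MD1 share may not stand for all Ndufb11 RNA. Rbm10 (X, 20194629 to 20228031), a splicing regulator, starts on the other strand and overlaps the start of Ndufb11 by 62 bases. Rbm10 had 48.4% of 275 reads and 48.98% of 392 reads in MD1 and no paternal read among 159 and 159 reads in WT. Its rise was 48.7 ± 0.308 points (SE; adjusted p = 3.32e-32, edgeR), against 14.9 ± 0.431 points (SE) at the gene it overlaps. These SEs come from the spread of 2 libraries per group and can be smaller than the counting error of the reads. The 318 WT reads of Rbm10 allow a share of up to 0.943%.

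The 4 genes from Rbm10 to Usp11 (X, 20194629 to 20297665), which fill 103.04 kb, all lie on the same strand. Their mean shares in MD1 were 46.3% to 52.3%, close to parity between the 2 alleles. Uba1, the main enzyme that activates ubiquitin, had 46.8% of 17305 reads and 45.8% of 21382 reads in MD1, against 0.0694% of 8648 and 0.0495% of 10104 reads in WT. Its rise was 46.2 ± 0.515 points (SE), and with an adjusted p of 7.66e-132 it was the best supported gene of the stretch in edgeR. Adjusted p-values this small changed much in size with the setting. At Uba1 it was 5.44e-23 in edgeR on genes averaging 100 or more reads and 3.86e-96 in DESeq2. Cdk16, a cyclin-dependent kinase, had 48.8% and 46.4% in MD1 and 0 paternal reads among 3054 in WT, which allows up to 0.0982%. The rise at Cdk16 was 47.6 ± 1.19 points (SE; adjusted p = 5.90e-122, edgeR). Usp11, another deubiquitinating enzyme, had 54.9% of 778 reads and 49.6% of 659 reads in MD1, against 0.312% of 320 and 0% of 472 in WT. At 52.1 ± 2.64 points (SE; adjusted p = 9.49e-57, edgeR) this was the largest rise of the stretch and number 5 among the 391 informative X genes. Rbm10, Cdk16 and Uba1 were number 12, 15 and 19.

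Past a gap of 139.97 kb, which holds Araf, the shares were lower again. The 6 informative genes from Syn1 to Zfp182 (X, 20437637 to 20639164) had mean shares of 24.96% to 38.4% in MD1 and at most 0.4% in WT. Timp1 (X, 20447292 to 20451863), a secreted inhibitor of matrix metalloproteinases, had 40.8% of 19584 reads and 36.1% of 21294 reads in MD1, against 0.0147% of 6823 and 0.0776% of 6445 in WT. Its rise was 38.4 ± 2.33 points (SE; adjusted p = 2.84e-117, edgeR). Timp1 lies within Syn1, on the other strand. Syn1, the gene of the synaptic vesicle protein synapsin, had 26.1% and 29.2% in MD1 and no paternal read among 256 in WT. The library kit keeps strand, but whether the counting used it is not given in the sources used here, so reads of Timp1 and Syn1 may not be fully apart.

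Downstream, Cfp, which encodes the complement regulator properdin, had 26.8% of 97 and 23.8% of 63 reads in MD1 and 0 of 32 and 0 of 16 in WT. These 48 WT reads allow a share of up to 6.25%, and the call at Cfp was lost without WT replicate 1, with an adjusted p of 0.0551 in edgeR. Elk1, a transcription factor of the ETS family that responds to MAP kinases, had 23.1% and 26.8% in MD1, against 0% and 0.8% in WT. The noncoding gene A230072C01Rik had 35.1% and 34.1% in MD1, and Zfp182, a zinc finger gene, had 33.8% and 32.3%. Neither had a paternal read in WT, among 144 and 521 reads.

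The last 3 informative genes are far apart, and 2 of them stayed close to silent. Gm5124 (X, 20937991 to 20941750) had no paternal read among 183 in MD1 or 167 in WT, which allows up to 1.64% in MD1 and 1.80% in WT. Klhl13 (X, 22796397 to 22942208), a substrate adaptor of cullin ubiquitin ligases in mitosis, had 0% of 67 and 0.990% of 101 reads in MD1, 1 paternal read in all, and none among 319 in WT. Its difference of 0.495 ± 0.495 points (SE) did not pass (adjusted p = 0.308, edgeR). Wdr44, a Rab-binding protein of endosomes, had 18.06% and 12.96% in MD1 and no paternal read among 435 in WT, a rise of 15.5 ± 2.55 points (SE; adjusted p = 2.76e-14, edgeR). The 17 genes of the stretch that start past 24 Mb gave no informative gene, and 16 of them were listed at 0 FPKM in both groups. Beyond the 30 Mb bound the next informative gene, Dock11, had 8.13% ± 0.429 in MD1 and 0.0577% ± 0.0817 in WT (SD, n = 2 each).

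Neighbouring genes tended to have like rises. The rise differed by 3.18 points in the median between 14 pairs of adjacent informative genes less than 100 kb apart, and by 15.02 points between 13 pairs farther apart. The largest difference among close pairs was 33.7 points, between Ndufb11 and Rbm10, and the next was 13.1 points, between Timp1 and Cfp. The first rests on the few MD1 reads of Ndufb11, which may not stand for all of its RNA. Most of the close pairs lie between Ndufb11 and Zfp182, and the spans of Ndufb11 and Rbm10 and of Syn1 and Timp1 overlap. Adjacent genes share position, base composition and the same libraries, so these values describe the pattern only.

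Of the other 55 genes, 11 had 10 or more allele-specific reads in all or a mean FPKM of 1 or more without being informative, and 44 had fewer. Among these 44, 40 had no allele-specific read in any library, and 35 of the 83 genes were listed at 0 FPKM in both groups. Many are predicted genes, and 31 of the 83 symbols begin with Gm. The kinase gene Araf (X, 20425669 to 20437647), a member of the RAF family that relays growth factor signals, lies between Usp11 and Syn1. It had 73.3% of 30 reads and 76.7% of 43 reads in MD1, or 75.3% of 73 in all (Wilson 95% interval 64.4% to 83.8%, counting error only). In WT it had 2 and 5 allele-specific reads, too few for a deposited share. Both MD1 libraries lay above parity at Araf, on few reads for a gene of 41.6 FPKM in MD1 and 28.7 in WT. Its allele-specific reads were 10.4 times as many in MD1 as in WT, against an FPKM ratio of 1.45. Reads and FPKM thus went apart, so the share may not stand for all Araf RNA. The reason was not tested.

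The remaining genes were thinly covered. Slc9a7, a proton exchanger of the Golgi, had 11.5% of 26 reads in MD1 (Wilson 95% interval 4.003% to 28.98%) and 0 of 44 in WT, which had an upper Wilson limit of 8.03%. Ndp, the gene of the secreted signal norrin, had 10% of 20 reads in MD1 and 0 of 53 in WT, with upper limits of 30.1% and 6.76%. Uxt, a small chaperone-like protein, had 12% of 25 reads in MD1 and 11 reads in WT. The Bcor-overlapping transcript 2900008C10Rik had 14.8% of 27 reads in MD1 and 16 reads in WT. Zfp300 had no paternal read among 34 in MD1 or 20 in WT. The angiotensin receptor gene Agtr2 had 2 reads in MD1 and 20 in WT, none of the 20 paternal. Gm14635 had 20% of 10 reads in MD1 replicate 2 and 0 of 11 in WT replicate 2. Gm14634, AA414768 and Nyx had 7 to 13 reads in MD1 and 2 to 6 in WT, too few for a share in any library.

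Grouped by role, with lists chosen when earlier results were known, the rises spanned functions. Each of 5 genes for transcription and chromatin rose (Bcor, Med14, Jade3, Elk1 and Zfp182), at 6.59% to 41.9% in MD1. Of 4 ubiquitin pathway genes 3 rose, at 38.03% to 52.3%, and Klhl13 did not pass. Of 6 genes for mitochondria and metabolism 5 rose, with a median share over the 6 of 13.9%, and Maob did not pass. All 4 genes for membrane transport and trafficking (Tspan7, Atp6ap2, Rp2h and Wdr44) rose, with a median of 12.7%. Both informative kinases (Cask and Cdk16), both secreted proteins (Timp1 and Cfp) and the 1 neuronal gene, Syn1, rose too. Against the 74.4% that rose over all informative X genes, such small lists show no more than their counts. Ubiquitin pathway genes Uba1 and Usp11 are close neighbours, so position and role cannot be told apart there.

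The promoter is where DNA methylation at CpG dinucleotides accompanies silencing of an X-linked gene, so 5 promoters are shown: those of the gene with the largest rise (Usp11), of its near neighbour Rbm10, of the abundant Timp1, and of the nearly silent Maoa and Klhl13. They are RefSeq windows of 300 bases in GRCm38.p6, from 250 bases before to 50 after the gene's outermost annotated start, printed 5′ to 3′ on the gene's strand with CpG in capitals. They lie at chrX:20703659-20703958 (plus strand, Usp11), chrX:20617253-20617552 (plus, Rbm10), chrX:20869916-20870215 (plus, Timp1), chrX:16619448-16619747 (plus, Maoa) and chrX:23365033-23365332 (minus, Klhl13). This build differs from the mm9 build of the gene positions.
Usp11: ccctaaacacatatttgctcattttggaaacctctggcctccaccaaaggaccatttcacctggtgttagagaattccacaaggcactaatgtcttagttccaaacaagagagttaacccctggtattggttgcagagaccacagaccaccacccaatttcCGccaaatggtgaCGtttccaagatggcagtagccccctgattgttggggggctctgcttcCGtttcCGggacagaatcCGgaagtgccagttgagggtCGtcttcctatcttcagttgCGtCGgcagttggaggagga
Rbm10: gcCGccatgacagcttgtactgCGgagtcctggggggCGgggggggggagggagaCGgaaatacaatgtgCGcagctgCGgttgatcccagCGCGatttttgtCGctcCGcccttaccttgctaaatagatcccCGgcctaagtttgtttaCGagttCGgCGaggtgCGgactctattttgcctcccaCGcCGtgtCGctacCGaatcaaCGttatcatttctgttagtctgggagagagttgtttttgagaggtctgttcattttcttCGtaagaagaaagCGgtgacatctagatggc
Timp1: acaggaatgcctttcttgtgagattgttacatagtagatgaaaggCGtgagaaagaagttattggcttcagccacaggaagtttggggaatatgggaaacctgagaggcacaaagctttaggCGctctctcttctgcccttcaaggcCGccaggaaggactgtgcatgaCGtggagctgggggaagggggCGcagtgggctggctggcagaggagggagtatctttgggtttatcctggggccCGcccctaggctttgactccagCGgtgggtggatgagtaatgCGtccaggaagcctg
Maoa: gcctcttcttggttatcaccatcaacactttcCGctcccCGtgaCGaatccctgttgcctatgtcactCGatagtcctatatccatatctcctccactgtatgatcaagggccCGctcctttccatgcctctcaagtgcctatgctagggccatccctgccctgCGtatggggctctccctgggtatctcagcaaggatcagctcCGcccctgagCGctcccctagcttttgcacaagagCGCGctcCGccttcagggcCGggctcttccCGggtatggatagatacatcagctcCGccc
Klhl13: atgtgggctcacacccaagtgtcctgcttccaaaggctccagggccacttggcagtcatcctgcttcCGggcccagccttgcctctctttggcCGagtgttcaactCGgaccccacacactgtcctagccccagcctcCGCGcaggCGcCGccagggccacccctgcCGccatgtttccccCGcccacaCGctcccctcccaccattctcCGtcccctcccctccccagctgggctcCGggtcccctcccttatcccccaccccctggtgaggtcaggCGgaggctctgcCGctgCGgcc

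The number of CpG in these windows did not order the genes. Usp11, at 52.3% paternal in MD1, had 8 CpG and Rbm10, at 48.7%, had 22. Timp1 had 8, while Maoa, at 3.02%, had 14 and Klhl13, at 0.495%, had 15. Of the 28 informative genes 23 had a window in the RefSeq table, 1 of them, Rp2h, through an older symbol. Over these 23 genes, which differ in base composition and were measured in the same libraries, Spearman's rho between CpG number and MD1 share was -0.21. It was 0.23 over 313 other informative X genes. The median window held 14 CpG, against 17 for the other X genes and 7 over 32851 windows of all genes. The ratio of observed to expected CpG was 0.6 or more in 52.2% of the 23 windows, 60.1% of the other X windows and 35.8% of all windows.

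**Figure D2:**
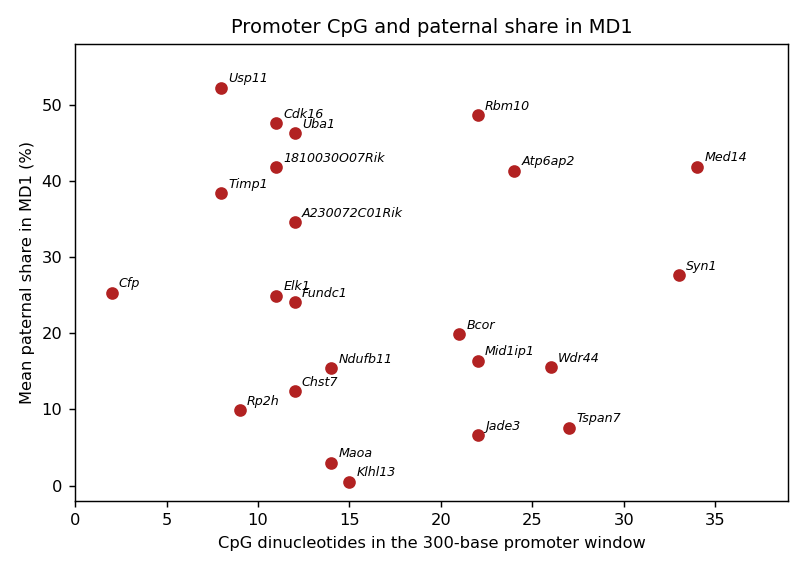
Number of CpG dinucleotides in the 300-base RefSeq promoter window (horizontal axis) and mean paternal share in MD1 in percent (vertical axis) for the 23 informative genes with a window, 1 point per gene. Usp11 with 8 CpG lies at the top at 52.3%, and Tspan7 with 27 CpG lies at 7.62%.

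Short motifs were counted on both strands. GGGCGG, bound by factors of the Sp family, was present in 60.9% of the 23 windows, 61.98% of the other X windows and 35.7% of all windows. CGGAAG, a core of ETS sites, was in 21.7%, 25.2% and 16.9%, and ATGGCG, a core of YY1 sites, in 17.4%, 15.3% and 8.93%. Usp11 had 2 matches to the ETS core and 0 to the Sp motif. The Sp motif was present in Maoa, Klhl13, Rbm10 and Timp1. A match describes letters, not binding.

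Total RNA of the genes was higher in MD1 where the paternal share was high. FPKM was deposited as 1 mean per group, so ratios have no spread and no test. After 1 was added to each value, the ratio of MD1 to WT was taken as a log2. Genes listed at 0 in a group or averaging less than 1 FPKM were not used. Over the 30 genes of the stretch that met this, the median was 0.39 and 24 were above 0 (80%). For comparison, 50.8% of all genes were above 0, as were 66.6% of 368 other X genes, whose median was 0.20. The autosomal median was 0.0012. On this scale Timp1, at 1.38, was the only gene of the stretch at least 2-fold higher (1.39% of all genes were), and Klhl13, at -1.01, the only one at least 2-fold lower (2.81% of all genes).

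Among the 10 genes past the FPKM limit whose share was 30% or more in both MD1 libraries, all had higher FPKM in MD1, with a median FPKM ratio of 1.69 and a range of 1.31 to 2.60. A230072C01Rik also had such a share but was under the limit, and it had 0.794 FPKM in MD1 and 0.852 in WT. Uba1 had 284.8 FPKM in MD1 and 162.4 in WT, Atp6ap2 105.4 and 65.7, Med14 28.5 and 15.3, and Usp11 5.49 and 3.28. Among 6 genes under 10% in both MD1 libraries only Jade3 had a log2 ratio above 0, and the median was -0.32. Klhl13 had 8.004 FPKM in MD1 and 17.2 in WT, Maoa 30.8 and 40.2, Maob 1.34 and 1.89, and Tspan7 12.5 and 16.01. Across the 27 informative genes with a ratio, Spearman's rho of MD1 share with log2 ratio was 0.75, and across 330 other X genes it was 0.64. Each gene's share and FPKM come from the same libraries. Paternal RNA counts in both the MD1 share and the MD1 total, so a positive rho is partly built in.

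The total was split into a maternal and a paternal part by the pooled share of the group. This assumes that allele-specific reads stand for all reads of a gene. Over the 27 genes the median ratio of the maternal part in MD1 over WT was 0.943, with 17 genes below 1 and 10 above. At Uba1 the maternal part was 153.1 FPKM in MD1 and 162.3 in WT, and the paternal part in MD1 was 131.7 FPKM. At Rbm10 the maternal part was 8.80 FPKM in MD1 and 10.05 in WT, beside a paternal part of 8.36 in MD1. Timp1 differed from Uba1 and Rbm10, since its maternal part was 1.61 times the WT part. Its total was 965.7 FPKM in MD1 and 370.8 in WT, with a paternal part of 370.1 and a maternal part of 595.6 in MD1, against a maternal part of 370.6 in WT. Cfp had 4.02 FPKM in MD1 and 1.75 in WT, and its maternal part was 1.71 times the WT part. Properdin is made mostly by myeloid cells, whose markers went both ways, as with Emr1 (1.42 FPKM in MD1 and 0.910 in WT) and C1qb (3.59 and 7.20), and their part in Cfp was not tested. At Klhl13 and Tspan7 the maternal part was 0.463 and 0.726 of the WT part.

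**Figure D3:**
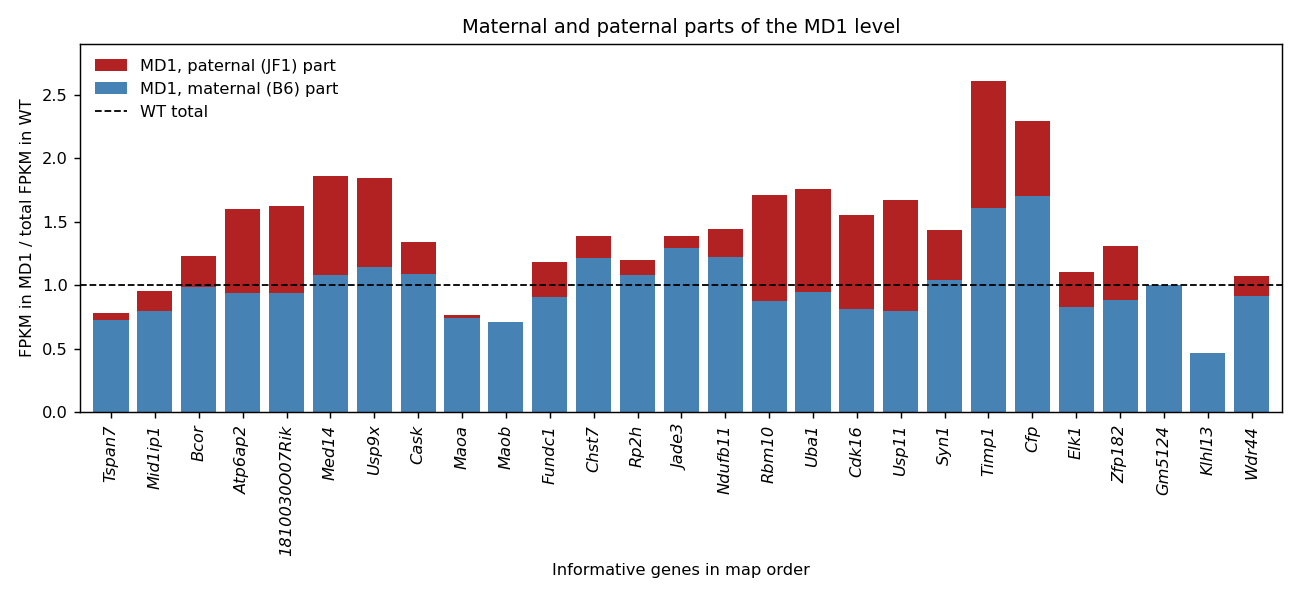
FPKM in MD1 divided by total FPKM in WT for the 27 informative genes past the FPKM limit, in map order, split into the paternal part (red) and the maternal part (blue) by the pooled paternal share; the dashed line marks the WT total, and there are no error bars since 1 mean per group was deposited. Timp1 is highest at 2.60 times the WT total, and Klhl13 is lowest at 0.466.

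Ndufb11 stood apart from the other informative genes of the stretch in its read numbers, a feature noticed after its values were seen. It had 156 allele-specific reads in MD1 and 1495 in WT, while its FPKM was 117.5 in MD1 and 81.5 in WT. Maternal reads alone numbered 132 in MD1 and 1488 in WT. The log2 ratio of its allele-specific reads lay 3.79 below the log2 ratio of its FPKM. For the other 26 informative genes of the stretch with both ratios this difference ranged from -0.46 to 0.54. Among 357 informative X genes Ndufb11 was number 3 from the lowest. Its MD1 reads, on which its paternal share in MD1 rests, were 0.104 of its WT reads. That share, and with it the step from Ndufb11 to Rbm10, may not stand for all Ndufb11 RNA. The reason was not tested.

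**Figure D4:**
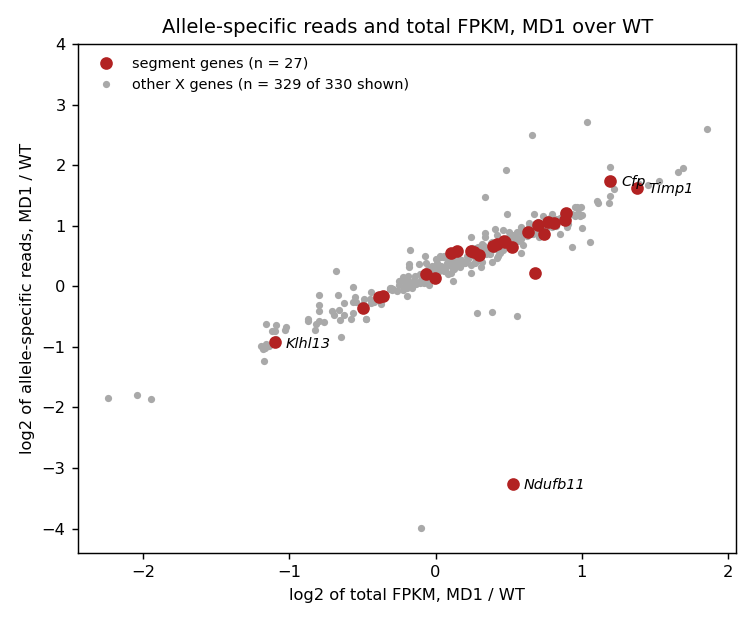
Log2 ratio of summed allele-specific reads (vertical axis) against log2 ratio of total FPKM (horizontal axis), MD1 over WT, for 27 informative genes of the stretch (red) and 329 of 330 other X genes (grey; 1 lies outside the frame). Most points follow a common line, and Ndufb11 lies far below it, with 156 reads in MD1 and 1495 in WT.

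Set beside the rest of the X chromosome, the stretch had higher shares in MD1, without a test of that difference. The median share in MD1 was 24.5% for the 28 genes and 11.7% for the 363 other informative X genes. High shares were not particular to the stretch. Proximal to the 10 Mb bound, at 7339787 to 7525015 on X, Tfe3 had 42.3%, Hdac6 43.3% and Gripap1 47.2% on average in MD1. Nearer to the bound, Xk had 3.75%, Srpx 0.794% and Rpgr 34.1%. In MD1 21 of the 28 genes had a share of 10% or more (54.5% of all informative X genes did), and 7 had 40% or more in both libraries (12.8% of all). Only 3 were under 1% in both MD1 libraries (19.4% of all). In WT the median share was 0.0552% for the stretch and 0.0464% for the other X genes, so the stretch was no lower by this measure. The WT mean share was 0.158% ± 0.00916 for the stretch and 0.732% ± 0.0476 for the other X genes (SD, n = 2 each), and 0 of the 28 genes had a mean share of 1% or more in WT, against 27 of the 363. That the known escape genes Ddx3x and Kdm6a were left out bears on this, since with them the WT mean was 2.02%. Both are counted among the 363 other X genes, as are escape genes elsewhere on X. The selection itself thus sets part of this contrast in WT.

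**Figure D5:**
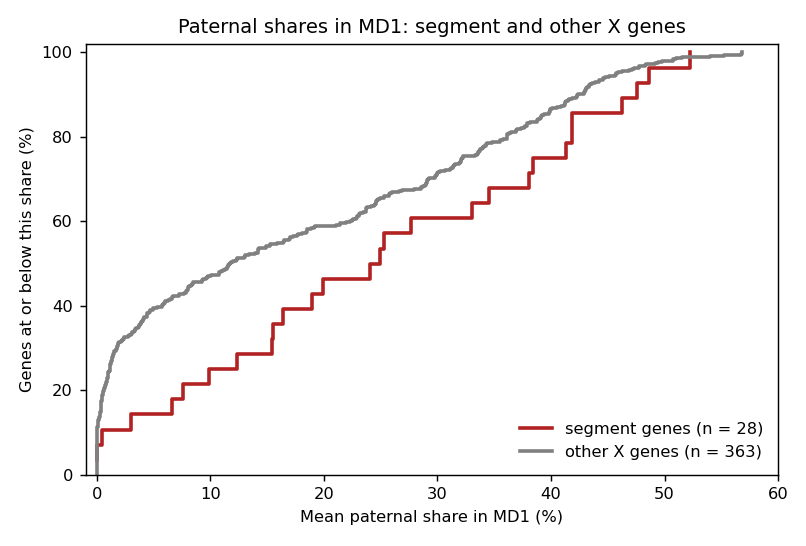
Percentage of genes (vertical axis) whose mean paternal share in MD1 is at or below the value on the horizontal axis, in percent, for the 28 informative genes of the stretch (red) and the 363 other informative X genes (grey). The red line reaches the middle of its genes near the median of 24.5% and the grey line near 11.7%.

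The informative X genes with a pattern most like that of Usp11 lay elsewhere on X. Likeness was the sum over the 4 libraries of the absolute differences in share, in points. The 4 nearest were Haus7 at 3.80, Ikbkg at 5.21, Fam50a at 5.49 and Atp6ap1 at 6.22. They lie between 70682654 and 71699117 on X, and their mean shares were 49.8% to 53.995% in MD1 and at most 0.153% in WT.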

How the data were processed

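Polyadenylated RNA of 4 cultures of embryonic fibroblasts was sequenced from stranded libraries, per the labels' protocols. The authors deposited 1 table of 22691 genes in mm9, and the submitters' processing notes name Cufflinks 2.2.1 and Cuffdiff. Which aligner, variant set and annotation were used is not given in the sources used here. Allele-specific reads were deposited as counts, whole numbers without normalization. The paternal share was deposited as a fraction for genes with 10 or more such reads in a library. Multiplied by the reads it gave whole numbers, within 0.001, in 100% of 1734 values, which gave the JF1 counts. FPKM was deposited as 1 mean per group by the authors. Reads that align better to the B6-based reference would lower paternal shares in both groups.

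Genes were tested with edgeR 4.0.16 in R 4.3.3 by the two-sided quasi-likelihood F-test. Both alleles' counts entered as columns, and the model held each library, the allele, and the interaction of allele and genotype, which was tested. Library sizes were the allele-specific totals on X, with Benjamini-Hochberg adjustment over 391 X genes and an FDR of 0.05. The test was tried on simulated data first. The chi-square per degree of freedom between replicates was 83.8 in MD1 and 95.8 in WT. It was taken on allele-specific read totals of genes, not on shares. It was far beyond sampling noise, so the replicates were kept as separate samples. Alternatives were DESeq2 1.42.0, TMM factors, other read minimums, each library left out, a replicate block, other pseudocounts and FPKM filters, and left-out genes counted in. The SE of a rise comes from the SD of the 2 libraries per group. It can be smaller than the counting error of the reads, as at Ndufb11, with 76 and 80 reads in MD1. Upper limits for 0 reads are 3 reads over the total, and these and Wilson 95% intervals cover counting error only. Starts were printed 1-based. Genes were named by rule: all informative genes, others with 10 or more reads or an FPKM of 1 or more, and full statistics for Usp11, Rbm10, Timp1, Araf and the 5 largest and 5 smallest differences. Of the 5 genes most like Usp11, 1 is not reported here. The members and gene lists were chosen with earlier results of these data known.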

Additional observations from a re-analysis of the deposited data

Results flagged for a closer look

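Araf gave signal outside the tested genes, because its WT libraries held too few allele-specific reads for a share. Its paternal share in MD1 was 75.3% of 73 reads, with a lower Wilson 95% limit of 64.4%, against 7 reads in WT.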

How the results depend on the processing

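The number of genes of the stretch that rose was 25 in edgeR. It was also 25 with DESeq2, TMM factors, a replicate block or no minimum of mean reads, the last adding no gene of the stretch. It was 23 of 25 tested genes at a mean of 100 or more reads, 26 with Ddx3x and Kdm6a counted in, and 18 of the 21 genes whose spans overlap no other gene. With each library left out it was 24 to 25, and 0 genes fell under any of these alternatives. Where a group kept 1 library, that library was assumed to vary like the other group. Of 249 results for single genes under an alternative, 248 kept their direction and side of the threshold, and Cfp lost its call without WT replicate 1. Replicate numbers are not said to pair the samples. Deviations of replicate 1 in MD1 and WT correlated at 0.12 over 391 genes, and the replicate block changed no call. The mean share in MD1, 24.7%, was 37.7% with reads pooled over genes, 25.9% with Ddx3x and Kdm6a, 25.3% at 100 or more reads and 24.4% to 25.04% with a library left out. In WT, 0.158% was 0.126%, 2.02%, 0.177% and 0.152% to 0.165% under the same settings. The median log2 ratio of FPKM was 0.46 with a pseudocount of 0.1, 0.46 at a mean FPKM of 5 or more and 0 without a filter, where genes at 0 enter. Added after seeing the data, the median promoter CpG was 16 in the window with the most CpG, in place of 14, and the maternal part's median ratio was 0.942 from means of library shares. Among genes with no WT paternal read, depth limits Cfp most (6.25%), then A230072C01Rik (2.08%) and Gm5124 (1.80%).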
